A study of Homo sapiens with 24 samples.

Results

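The subject is MDA-MB-231, an established human breast cancer cell line, as read on 6 of the 24 arrays of a series on cisplatin in triple-negative breast cancer. The 6 arrays were all those whose title names the line, 2 replicates each at 0, 24 and 72 h of 2 µM cisplatin, a platinum drug that crosslinks DNA. They were set against 18 arrays of 3 other established triple-negative lines, BT549, HCC38 and MDA-MB-157, which had the same dose, times and replicate numbers. Every line was exposed to the drug. Untreated cultures of the later times were not analysed here, so a difference that appears after 0 h holds both the drug and the time in culture. Each line is 1 established culture, so a difference between lines does not extend to other tumours or to other stocks of a line.

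MDA-MB-231 was derived from a pleural effusion of a patient with breast cancer, and is known as a spindle-shaped, invasive line. Triple-negative lines lack oestrogen and progesterone receptors and amplified HER2, and are often described along an axis between epithelial cells, which hold together through cadherins and keratins, and mesenchymal cells, which make matrix and migrate. A line's own program is here the set of genes whose RNA differs from each of the other lines at every time, whatever the drug did.

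Total RNA, labelled with biotin, was read on Illumina bead arrays of 1 colour. Values are log2 intensities after background correction and quantile normalization, and differences are MDA-MB-231 minus another line. On the 6 MDA-MB-231 arrays 18303 to 20489 of 47322 probes were detected, against a range of 18303 to 21976 over all 24 arrays. Replicate pairs had correlations of 0.977 to 0.991 over genes. The MDA-MB-231 pair at 0 h lay farthest apart of the 12 pairs, with 765 genes over 2-fold apart, against 222 for its pair at 24 h and 70 at 72 h. Precision is limited by the 2 arrays of each group. The series' design text calls the replicates independent, and p-values measure only the spread between these samples.

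The label was checked against genes that mark each line. The lead genes given for MDA-MB-231, RAC2, C19orf33, FOXA2 and IFI27, had been picked on 0 h values of these same arrays, so their levels are a description with no test. RAC2, a small GTPase of blood cells, had 12.56, 12.68 and 12.80 on the MDA-MB-231 arrays (here and below the lowest, median and highest of 6), against 8.54, 8.97 and 9.51 in HCC38 and 4.71, 5.49 and 7.23 in MDA-MB-157, and no BT549 array detected it. C19orf33, which encodes the immortalization up-regulated protein, had 10.62, 10.90 and 11.21 in MDA-MB-231, against at most 6.76 on any of the other 18 arrays. FOXA2, a pioneer transcription factor of endoderm and liver, had 9.91, 10.20 and 10.39 in MDA-MB-231, and 2 of the other 18 arrays, both of HCC38, detected it. IFI27, an interferon-induced mitochondrial gene, had 11.13, 11.33 and 11.59 in MDA-MB-231, against 4.40, 6.52 and 8.11 in BT549, 5.22, 6.26 and 7.73 in HCC38 and 5.26, 5.92 and 6.79 in MDA-MB-157. For each of these 4 genes the 6 MDA-MB-231 arrays lay above all 18 others.

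**Figure D1:**
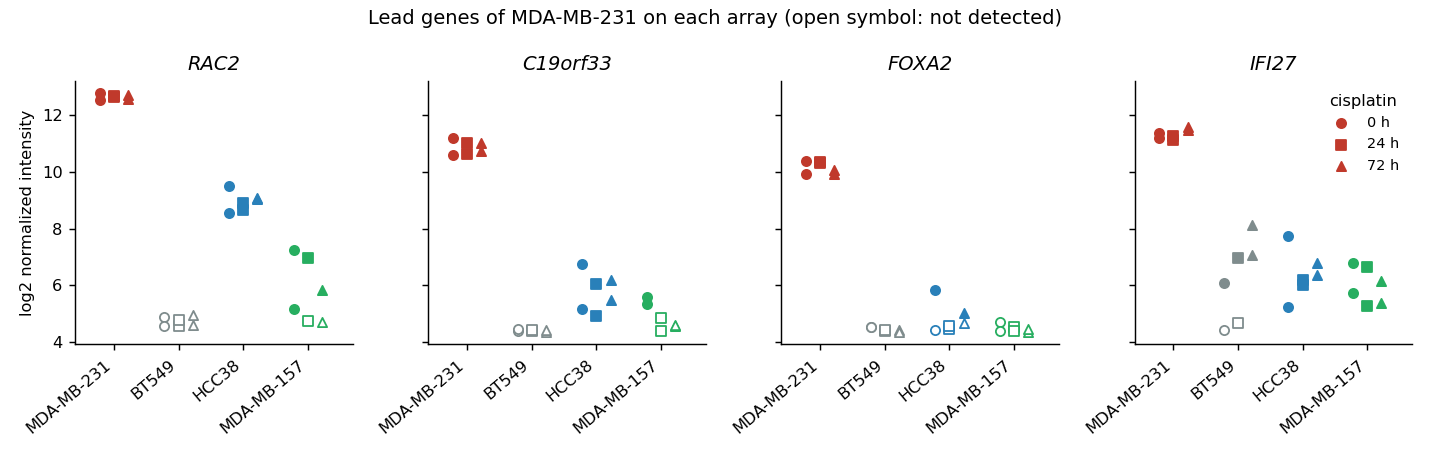
Log2 normalized intensity of RAC2, C19orf33, FOXA2 and IFI27 on each of the 24 arrays, by line and time, with MDA-MB-231 at the left. Open symbols are arrays that did not detect the gene, and symbol shapes give the time; the 6 MDA-MB-231 arrays lie above all 18 others in each panel.

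Of the 12 lead genes of the other lines, RARRES1, PDGFRB and COLEC12 were undetected on all 6 MDA-MB-231 arrays. Detection is by a gene's brightest probe in this paragraph, and by any probe 2 of the 12 were undetected on all 6. The second replicate at 0 h stood apart. It detected 7 of the 12, with TAGLN, an actin-binding gene that leads BT549, at 7.89 and a summed level of 67.2, against summed levels of 57.6 to 61.3 on the other 5 arrays. The first replicate at 72 h detected 5, and the remaining 4 arrays detected 2 or 3. The part of these RNAs in the results was not tested. Results that changed without an array are given with that value beside them.

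In MDA-MB-231, 527 of 14807 genes were higher than in each other line at all 3 times, and 355 were lower in each. Higher genes included ACSL5, S100A4 and NDRG1, and lower genes included CDH2, PHGDH and CBS. A gene counted where all 9 differences, 3 lines by 3 times, had the same sign and a limma adjusted p under 0.05. These counts are 3.56% and 2.4% of the genes tested, and their sum is 5.96%. All 9 differences were at least 1 log2 for 267 higher genes (1.8%) and 168 lower genes (1.13%). By the rule with no limit on the size of the difference BT549 had 542 higher and 467 lower genes, HCC38 874 and 632, and MDA-MB-157 827 and 561, so MDA-MB-231 had the lowest count of the 4 lines in both directions. With all 9 differences at least 1 log2 BT549 had fewer higher genes (239) and more lower genes (238) than MDA-MB-231.

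Single comparisons called many more genes. At 0, 24 and 72 h the numbers in either direction were 5132, 5176 and 5301 against BT549 (34.7%, 35% and 35.8%), 5948, 5982 and 6220 against HCC38 (40.2%, 40.4% and 42%), and 5636, 5704 and 6178 against MDA-MB-157 (38.1%, 38.5% and 41.7%). On each of the 2 slides, which held 1 array of every group, 527 and 526 of the 527 higher genes had all 9 differences above 0, and all 355 lower genes had all 9 below 0. These are the arrays that chose the genes. Without the replicate at 0 h that stood apart the program held 499 higher and 321 lower genes, and at 24 and 72 h alone, a setting added after the data were seen, 683 and 444. The size of the program rested on the normalization. With each array scaled to its median it held 176 higher and 143 lower genes, and with the values the authors deposited 310 and 183. At 0 h the split of calls moved too, since MDA-MB-231 was higher in 48.0% of the calls against BT549 and 48.6% of those against HCC38, and in 15.5% and 20.8% with median scaling, which moved the median difference of all genes to -0.47 and -0.25. No gene of the program was called in the opposite direction under any setting. The median size of the difference over the 882 genes was 1.69, 1.74 and 1.77 log2 at 0, 24 and 72 h.

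The next genes were higher in MDA-MB-231 and detected by at least 1 probe in every group of the other lines. ACSL5, which activates long-chain fatty acids, had 10.28, 10.56 and 10.76 in MDA-MB-231, against 4.58, 5.52 and 6.76 on the 18 other arrays. S100A4, a calcium-binding gene tied to motility and metastasis, had 13.24, 13.86 and 14.05 in MDA-MB-231, against 7.65, 9.16 and 10.84 in the other lines. NDRG1, a stress and hypoxia gene, had 11.58, 11.86 and 12.03 in MDA-MB-231, against 5.72, 6.80 and 9.52. In all of these the 6 arrays of MDA-MB-231 lay above the 18 others with no overlap. Averaged over times against the equal-weight mean of the other lines (6 arrays against 18), the differences were 4.96 ± 0.13 log2 for ACSL5 (SE), 4.74 ± 0.29 for S100A4 and 4.58 ± 0.28 for NDRG1, and the highest of their 9 limma adjusted p-values were 1.2e-09, 1.9e-04 and 6.6e-04. Other probes of ACSL5 read smaller differences of 2.05 and 0.14.

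PODXL, a sialomucin of podocytes and endothelium, lay at 11.20 to 11.65 in MDA-MB-231, against 5.38 to 9.10 in the other lines, an average difference of 3.84 log2. CA12, a membrane carbonic anhydrase, lay at 8.78 to 9.54 in MDA-MB-231, against 4.93 to 7.07, a difference of 3.60, and its second probe read 2.24. MERTK, a receptor tyrosine kinase of the TAM family that binds dying cells, lay at 7.87 to 8.83 in MDA-MB-231, against at most 5.58, and its brightest probe was detected on 0 of 6 HCC38 arrays and 2 of 6 BT549 arrays. PLAT, the tissue plasminogen activator, differed by 3.61, ZNF185, an actin-associated LIM gene, by 3.71, VIPR1, the receptor of vasoactive intestinal peptide, by 2.89, and COL8A1, a short-chain collagen, by 2.97. MECOM, a zinc finger transcription factor, lay at 8.96 to 9.47 in MDA-MB-231, against at most 7.43, and this probe was detected on 2 of 6 HCC38 arrays. The other probes of MECOM read 0.05 and 0.26. ABCA1, which exports cholesterol, differed by 3.57, and its call ended without rep 2 of MDA-MB-231 at 0 h (adjusted p = 0.095) or rep 1 of MDA-MB-157 at 72 h (adjusted p = 0.053). SPANXB1, a gene of the testis, differed by 4.61 and PSG4, a gene of the placenta, by 2.98. Both have near-identical copies, so the copy measured is uncertain.

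**Figure D2:**
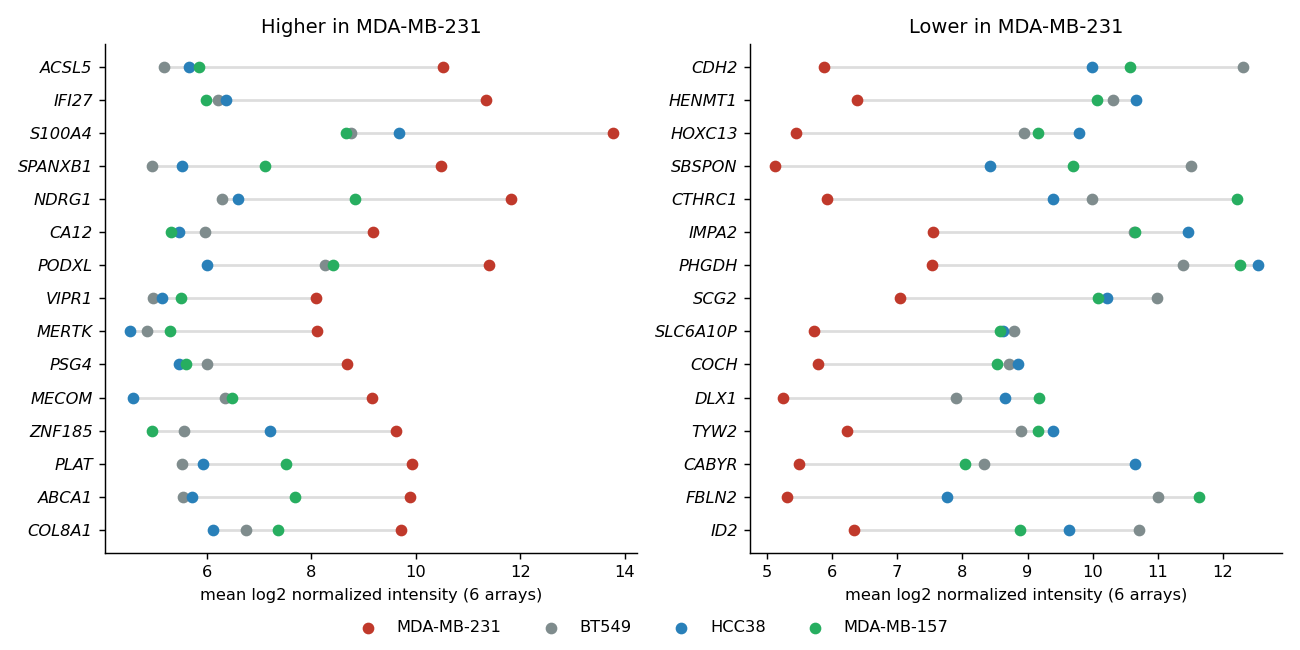
Mean log2 normalized intensity over the 6 arrays of each line for the 15 higher genes (left) and 15 lower genes (right) with the largest smallest difference among those detected in every group of the dimmer side. Red points are MDA-MB-231, and in every row they lie outside the other 3 lines; rows run from the largest smallest difference at the top.

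Of the 527 higher genes, 226 were undetected in at least 1 group of another line. For these only a least fold is given, computed against the detection floor of the dim arrays. It is the lowest over the 9 comparisons. Beside C19orf33 (at least 31.2-fold), FOXA2 (31.8-fold) and RAC2 (12-fold), they were led by ADGRF5, an adhesion receptor of endothelium and lung, at least 25.3-fold higher in MDA-MB-231, CLIC6, a chloride channel family member, at least 24.2-fold, and COL13A1, a transmembrane collagen, at least 23.8-fold. LOXL4, a lysyl oxidase that crosslinks collagen, was at least 20.8-fold higher, CDA, the cytidine deaminase that inactivates nucleoside drugs, at least 18.8-fold, CCRL2, a chemerin-binding receptor, at least 17.8-fold, and MAOA, a monoamine oxidase, at least 12.9-fold. The highest adjusted p over their 9 comparisons were 1.2e-09 for ADGRF5, 5e-10 for COL13A1 and 8.7e-10 for CDA. SPANXC (16.9-fold), MYEOV (16.7-fold) and C4BPB, a chain of the complement regulator C4b-binding protein (11.5-fold), followed. CDA had 9.30, 9.51 and 9.82 in MDA-MB-231, against at most 5.75 on the other 18 arrays, 4 of which detected it. COL13A1 had 9.46, 9.84 and 10.01 in MDA-MB-231, against at most 5.47.

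Detection alone separated 29 genes (0.196% of those tested), which were detected on all 6 MDA-MB-231 arrays and on 0 of the 18 others. All 29 belonged to the program, but they passed the detection filter only through MDA-MB-231. A higher call was thus close to fixed by the choice and is no separate support. ESAM, an adhesion gene of endothelial tight junctions, had 8.64, 8.97 and 9.29 in MDA-MB-231, against at most 4.76, and was at least 14.5-fold higher. PAGE5, a cancer-testis gene, was at least 9.82-fold higher. Others of the set were TFF3, a secreted trefoil peptide of mucous epithelia, and SPDEF, an ETS factor of secretory epithelium, at least 3.04-fold and 2.56-fold higher, the cystatins CST1 and CST2, the calcitonin receptor CALCR, the chaperone CLGN, KLHL4, SPINK4, TMEM71 and NHERF2. TLR4, the receptor of lipopolysaccharide, was also detected in MDA-MB-231 alone and was at least 1.80-fold higher, a call that ended with the authors' values (adjusted p = 0.072).

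On the lower side, CDH2, N-cadherin, the adhesion molecule of mesenchymal and neural cells, had 4.58, 5.86 and 6.92 in MDA-MB-231, against 11.91, 12.32 and 12.67 in BT549, 9.31, 10.20 and 10.48 in HCC38 and 10.39, 10.53 and 10.78 in MDA-MB-157. PHGDH, the first enzyme of serine synthesis, had 6.77, 7.37 and 8.75 in MDA-MB-231, against 11.14, 12.29 and 12.65 over the other lines. ID2, an inhibitor of helix-loop-helix factors, had 5.89, 6.31 and 6.75 in MDA-MB-231, against 8.71, 9.44 and 11.21. For each of these genes the highest MDA-MB-231 array lay more than 1 log2 below the lowest of the 18 others. The average differences were -5.09 ± 0.19 log2 for CDH2, -4.53 ± 0.12 for PHGDH and -3.41 ± 0.16 for ID2 (SE), with highest adjusted p of 2.4e-07, 2.4e-08 and 3.1e-05 from limma.

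CTHRC1, a secreted gene of collagen-making cells, lay at 5.22 to 6.77 in MDA-MB-231, against 9.19 to 12.37 in the other lines, and differed by -4.62. SBSPON, a secreted gene with thrombospondin repeats, differed by -4.77 and FBLN2, fibulin 2 of the matrix, by -4.83. The homeobox genes HOXC13 and DLX1 differed by -3.86 and -3.33. HENMT1, a methyltransferase of small RNAs, differed by -3.96, SCG2, a secretory granule gene, by -3.38, IMPA2, an inositol phosphatase, by -3.37, TYW2, a tRNA-modifying enzyme, by -2.92, and COCH, a gene of the inner ear matrix, by -2.91. CABYR, a gene of the sperm flagellum, differed by -3.52, but its second probe read -0.16. SLC6A10P, a pseudogene of the creatine transporter, differed by -2.95, and RNA of its parent gene could also bind its probe.

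Of the 355 lower genes, 87 were undetected in at least 1 MDA-MB-231 group. ANPEP, the aminopeptidase CD13, had 4.50, 4.86 and 5.31 in MDA-MB-231, against 9.68, 10.31 and 11.17 in the other lines, and was at least 26.3-fold lower. CBS, which joins serine and homocysteine, had 4.25, 4.44 and 5.10 in MDA-MB-231, against 9.05, 9.59 and 10.19, at least 19.4-fold lower. QPRT, an enzyme of NAD synthesis from tryptophan, was at least 15.6-fold lower, NETO2, an auxiliary subunit of kainate receptors, at least 13.2-fold, KLHL9, an adaptor of a ubiquitin ligase, at least 9.99-fold, PRRX2, a homeobox gene of mesenchyme, at least 9.0-fold, and SFRP1, a secreted WNT antagonist, at least 8.34-fold. The highest adjusted p was 1.2e-09 for ANPEP, 4.3e-10 for CBS and 5.4e-08 for QPRT. No MDA-MB-231 array detected 52 genes that all 18 other arrays did (0.351%), and 45 of these belonged to the program, which the choice by detection favoured. They included GSTT1, a glutathione transferase, at least 7.40-fold lower, DDR2, a collagen receptor kinase, at least 6.26-fold lower, TWIST2, a helix-loop-helix factor of mesenchyme, at least 3.86-fold lower, ZNF365, OLFM1, NPTX1, ELOVL4, TLE4 and DPYSL4. The calls of OLFM1 and NPTX1 ended with the authors' values (adjusted p 0.087 and 0.065), and that of OLFM1 also without background correction (0.074) and without rep 1 of BT549 at 72 h (adjusted p = 0.16).

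Gene groups are described next by counts, with 527 and 355 of 14807 genes (3.56% and 2.4%) as the background of the program. The average over times against the mean of the other lines, which a single line can drive, called 3954 genes higher (26.7%) and 4407 lower (29.8%), with a median of -0.03 over all genes. In the plot of groups the counts in the program stand beside both backgrounds.

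**Figure D3:**
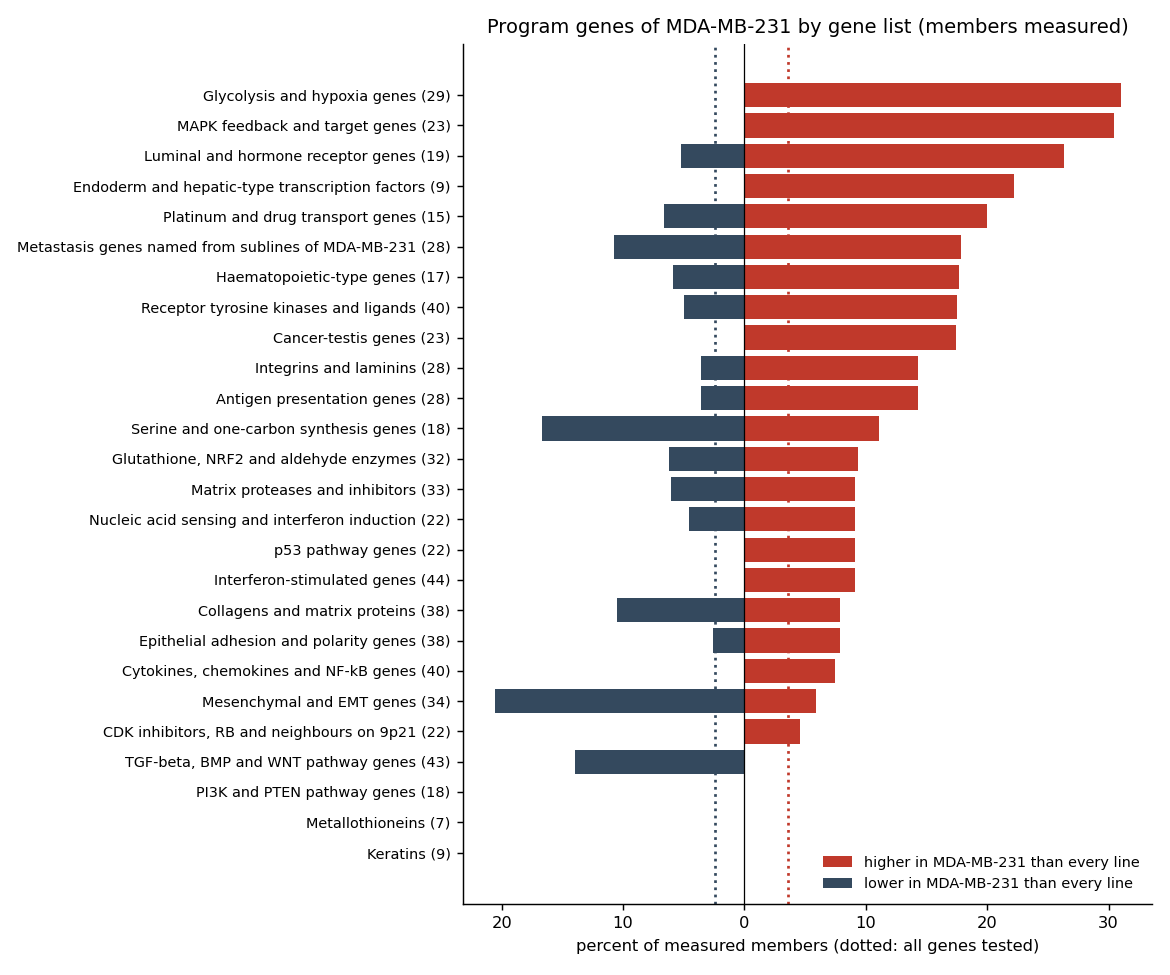
Percent of the measured members of the gene groups shown that were higher (red, to the right) or lower (dark, to the left) in MDA-MB-231 than in each other line at all 3 times, with the number measured in brackets. Dotted lines mark the shares of all genes tested, 3.56% and 2.4%; glycolysis and hypoxia genes (9 higher, 0 lower of 29) and MAPK feedback genes (7 higher, 0 lower of 23) reach farthest to the right, and mesenchymal genes (7 lower of 34) farthest to the left.

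Glycolysis and hypoxia genes were higher in MDA-MB-231. These genes carry glucose into the cell, split it, and are induced by HIF when oxygen is low. Of 29 measured, 9 were higher than in each other line at all times and 0 were lower, and on the average over times 20 were called higher and 4 lower, with a median of 0.74 log2. SLC2A3, a high-affinity glucose transporter, had 10.20, 10.31 and 10.97 in MDA-MB-231, against 8.16, 8.46 and 9.28 in MDA-MB-157 and at most 5.55 in HCC38, and no BT549 array detected it. SLC2A1, the common glucose transporter, had 11.61, 11.90 and 12.14 in MDA-MB-231, against 6.40, 10.24 and 11.18 over the other lines. PGK1, an enzyme of glycolysis, had 12.43, 13.05 and 13.27 in MDA-MB-231, against 11.32, 11.66 and 12.02. None of these ranges overlapped.

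The smallest of the 9 differences was 1.53 log2 for SLC2A3, 1.03 for SLC2A1 and 0.98 for PGK1, with highest adjusted p of 0.0012, 0.0055 and 0.0027 from limma. PFKFB4, which sets the level of a glycolysis activator, differed by 2.38 ± 0.19 on average, ENO2, an enolase, by 2.40 ± 0.15, BNIP3, a mitophagy receptor, by 1.72 ± 0.10, and VEGFA, the angiogenic growth factor, by 1.20 ± 0.11. With median scaling 3 of the 9 kept their call, NDRG1, CA12 and SLC2A3, and 9 kept it with the authors' values. The call of SLC2A1 ended without rep 2 of HCC38 at 0 h (adjusted p = 0.061) or rep 2 of HCC38 at 24 h (adjusted p = 0.054), and that of PGK1 without rep 1 of MDA-MB-231 at 0 h (adjusted p = 0.083). That of VEGFA ended without rep 1 of MDA-MB-231 at 72 h (0.32), rep 1 of HCC38 at 72 h (0.17) or rep 2 of MDA-MB-157 at 72 h (0.063). The factor genes themselves were outside the program, with HIF1A at 0.78 and EPAS1 at -0.52 on the average, and HK2, a hexokinase, at 1.89.

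Promoter sequence around the start of 3 such genes is given because hypoxia-inducible factors bind a core of the letters ACGTG, and all 3 genes belong to the program. The windows run from 250 bases before to 50 after the gene's start, on the gene's strand, from RefSeq on GRCh38.p14, and capitals mark ACGTG matches on either strand. PGK1 lies at chrX:78103998-78104297 (+) with 3 matches, BNIP3 at chr10:131981874-131982173 (-) with 2 that overlap, 1 on each strand, and ENO2 at chr12:6914330-6914629 (+) with 1. The same letters occur in 21.4% of 35116 RefSeq promoters of this length, and the windows of SLC2A1, CA12 and PFKFB4 held 0. A match is a description, not a binding site.
PGK1: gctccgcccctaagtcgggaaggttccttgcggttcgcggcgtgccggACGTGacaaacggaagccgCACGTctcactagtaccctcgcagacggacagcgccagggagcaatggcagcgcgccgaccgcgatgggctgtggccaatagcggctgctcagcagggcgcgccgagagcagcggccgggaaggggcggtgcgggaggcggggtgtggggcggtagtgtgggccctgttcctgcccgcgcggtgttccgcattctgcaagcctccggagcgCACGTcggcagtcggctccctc
BNIP3: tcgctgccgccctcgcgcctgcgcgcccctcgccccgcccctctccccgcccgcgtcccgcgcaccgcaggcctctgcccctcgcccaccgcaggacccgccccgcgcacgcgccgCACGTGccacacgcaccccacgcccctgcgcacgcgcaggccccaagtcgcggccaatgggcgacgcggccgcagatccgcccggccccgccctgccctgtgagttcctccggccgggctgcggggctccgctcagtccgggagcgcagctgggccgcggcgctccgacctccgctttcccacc
ENO2: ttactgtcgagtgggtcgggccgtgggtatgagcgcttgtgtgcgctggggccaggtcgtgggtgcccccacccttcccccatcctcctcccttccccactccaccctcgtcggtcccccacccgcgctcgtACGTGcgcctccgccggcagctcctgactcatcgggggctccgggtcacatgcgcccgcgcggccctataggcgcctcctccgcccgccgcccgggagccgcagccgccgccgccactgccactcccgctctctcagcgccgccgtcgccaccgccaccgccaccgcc

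Genes that MAP kinase signalling induces, many of which feed back on it, were higher in MDA-MB-231. Of 23 measured, 7 were higher than in each other line at all times and 0 were lower, and on the average 18 were called higher and 3 lower, with a median of 0.81. DUSP5, a nuclear phosphatase of ERK, had 10.42, 11.46 and 11.68 in MDA-MB-231, against 8.41, 8.86 and 9.20 in BT549, 7.83, 9.05 and 9.37 in HCC38 and 7.31, 7.66 and 7.81 in MDA-MB-157. DUSP6, a cytoplasmic phosphatase of ERK, had 10.62, 10.82 and 11.02 in MDA-MB-231, against 6.24, 7.97 and 9.74 over the other lines. The MDA-MB-231 arrays lay above all others for both genes. The average differences were 2.87 ± 0.18 for DUSP5 and 2.73 ± 0.20 for DUSP6 (SE), with highest adjusted p of 3.1e-04 and 0.015. DUSP4, a further phosphatase, was undetected in 1 of the other groups and at least 2.28-fold higher (0.39 log2 on its other probe). SPRY4, a Sprouty inhibitor of receptor signalling, differed by 1.84 (0.18 on its other probe), and PHLDA1, a target of ERK signalling, by 1.57 (-0.21 on its other probe).

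DUSP5 kept its call under every setting tried, and of the 7 genes it alone kept one when arrays were scaled to their medians. Without rep 2 of MDA-MB-231 at 72 h the calls of DUSP6 (adjusted p = 0.12), DUSP4 (0.058), ETV4 (0.098) and PHLDA1 (0.14) ended. Without rep 2 of BT549 at 72 h those of DUSP6 (0.13) and PHLDA1 (0.086) ended. That of DUSP4 also ended without rep 1 of BT549 at 24 h (0.072), and that of SPRY4 without rep 1 of MDA-MB-231 at 72 h (0.11) or rep 1 of BT549 at 72 h (0.074). ETV4 and SPRED1, an ETS factor and an inhibitor of the MAP kinase cascade, differed by 1.55 and 1.58, with highest adjusted p of 0.098 and 0.41 when 1 array was left out. EGR1, an immediate early factor, was outside the program at -0.93, with means of 8.81 in MDA-MB-231, 10.39 in BT549, 10.63 in HCC38 and 8.18 in MDA-MB-157. FOSL1, an AP-1 subunit, read 1.52, and SPRY2 1.29.

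Mesenchymal genes split, with 7 of 34 lower and 2 higher in MDA-MB-231 than in each other line, and a median of -0.41. Beside CDH2, SFRP1 and TWIST2, SPARC, a matrix protein of stroma, had 4.52, 4.93 and 6.15 in MDA-MB-231, against 10.58, 10.78 and 11.03 in BT549, 7.21, 7.69 and 8.23 in HCC38 and 11.54, 11.95 and 12.45 in MDA-MB-157, and was at least 4.81-fold lower. DKK3, a secreted gene of the Dickkopf family, lay at 6.14 to 6.67, against 7.53 to 11.48, a difference of -3.07, though its other probes read -0.02 and -0.15. ENG, endoglin, a co-receptor of TGF-beta, was undetected in MDA-MB-231 and at least 1.81-fold lower, a call that ended with the authors' values (adjusted p = 0.11). The higher members were S100A4 and AXL, a receptor kinase, at 1.33 ± 0.12, whose call ended with median scaling (0.18) and without rep 2 of MDA-MB-231 at 24 h (0.17), rep 1 of MDA-MB-231 at 72 h (0.15), rep 2 of HCC38 at 24 h (0.055), rep 2 of HCC38 at 72 h (0.14) or rep 2 of MDA-MB-157 at 24 h (0.10). VIM, vimentin, the filament of mesenchymal cells, was outside the program, at 0.38 on the average. TWIST1 was undetected in MDA-MB-231 (mean 4.72) and had means of 10.69 in BT549 and 11.20 in MDA-MB-157, but 5.54 in HCC38, which kept it out of the program.

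Collagens and matrix proteins were lower on the average, with 25 of 38 called lower, 10 called higher and a median of -0.89. Of the 38, 4 were lower and 3 higher than in each other line at all times. COL5A2, a fibrillar collagen chain, had 4.40, 4.77 and 5.42 in MDA-MB-231, against 7.07 to 11.67 in the other lines, and was at least 4.89-fold lower. MFAP2, a microfibril protein, was undetected in MDA-MB-231 and at least 2.28-fold lower, and its other probe read -0.54. COL16A1 differed by -2.52, a call that ended with the authors' values (adjusted p = 0.079). COL13A1, LOXL4 and COL8A1 were the higher members. The fibrillar chain COL1A1 had means of 5.03 in MDA-MB-231, 9.08 in BT549, 6.06 in HCC38 and 11.89 in MDA-MB-157 and was outside the program.

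Epithelial adhesion and polarity genes were lower on the average (25 of 38 called lower, 10 higher, median -0.69), while 3 were higher than in each other line and 1 was lower. The higher ones were PKP2, EHF and C19orf33, the last a lead gene picked on 0 h values of these arrays. CD24, a surface mucin of epithelial cells, had 8.22, 8.81 and 9.18 in MDA-MB-231, against 11.10, 11.81 and 12.88 over the other lines, a difference of -3.21 ± 0.13 with a highest adjusted p of 1.6e-06. PKP2, a plakophilin of desmosomes, and EHF, an epithelial ETS factor, were at least 1.91-fold and 2.22-fold higher. With median scaling both calls ended (adjusted p 0.39 and 0.26), and that of EHF ended without rep 1 of MDA-MB-231 at 0 h (0.057). CDH1, E-cadherin, had means of 5.44 in MDA-MB-231, 5.57 in BT549, 11.19 in HCC38 and 5.16 in MDA-MB-157, so HCC38 alone set its average of -1.87. Of 9 keratins none was in the program, and KRT19 had means of 11.82 in MDA-MB-231, 6.35 in BT549, 12.45 in HCC38 and 5.51 in MDA-MB-157.

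Luminal genes, which mark hormone-responsive breast epithelium, had 5 higher and 1 lower of 19 measured, with a median of -0.17. CA12, TFF3 and SPDEF were described above. AGR2, a disulfide isomerase of secretory cells, was at least 4.01-fold higher, although its other probe read 0.51, and its call ended without background correction (adjusted p = 0.082), with the authors' values (0.097), and without rep 2 of MDA-MB-231 at 24 h (0.089), rep 2 of MDA-MB-231 at 72 h (0.069) or rep 2 of HCC38 at 72 h (0.064). TBX3, a T-box repressor, differed by -2.52, with -0.49 on its other probe. Among 23 cancer-testis genes, normally silent outside the germ line, 4 were higher and 0 lower, and the fourth beside PAGE5, SPANXB1 and SPANXC was MAEL, a gene of the piRNA pathway, at least 2.16-fold higher. On the average 7 of the 23 were called higher and 9 lower, with a median of -0.05.

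Genes of blood cells had 3 higher and 1 lower of 17 measured, with a median of 0.63. The higher ones include RAC2, a lead gene picked on 0 h values of these arrays. Beside RAC2, CD74, the invariant chain that escorts MHC class II, had 9.33, 9.59 and 9.83 in MDA-MB-231, against at most 6.26 elsewhere, and was at least 13.9-fold higher, with 0.62 log2 on its other probe. ARHGDIB, a gene known from haematopoietic cells, had 10.36, 11.18 and 11.42 in MDA-MB-231, against 7.29, 8.22 and 9.70, a difference of 2.85 ± 0.16 (highest adjusted p = 8.5e-05). RAC1, the ubiquitous relative of RAC2, was outside the program, with means of 12.46 in MDA-MB-231, 12.78 in BT549, 11.07 in HCC38 and 12.81 in MDA-MB-157. LCP1, an actin bundler of leukocytes, had means of 9.55 in MDA-MB-231, 4.96 in BT549, 12.30 in HCC38 and 5.03 in MDA-MB-157. CD70, a ligand of the TNF family, differed by -4.36, but its call ended with median scaling (adjusted p = 0.072), with the authors' values (0.060), with array quality weights (0.074) and without rep 1 of MDA-MB-231 at 0 h (0.27), rep 1 of HCC38 at 0 h (0.36) or rep 2 of HCC38 at 24 h (0.086).

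Antigen presentation genes had 4 higher and 1 lower of 28 measured, with a median of 0.50, and 15 were called higher and 8 lower on the average. HLA-DPA1, a class II chain, had 7.21, 7.36 and 7.75 in MDA-MB-231, against at most 5.40 elsewhere, and was at least 4.83-fold higher. Another class II chain, HLA-DRA, was also higher, but its call ended under 8 settings. These included median scaling (adjusted p = 0.60) and the authors' values (0.059). ULBP2, a stress ligand of natural killer cells, had 7.24, 8.37 and 8.51, against 4.63, 5.78 and 6.62, a difference of 2.47 ± 0.17 (highest adjusted p = 2.3e-04). TAPBPL, which edits class I peptides, differed by -1.35, and its call ended with median scaling (adjusted p = 0.063), with the authors' values (0.35) and without rep 1 of MDA-MB-157 at 72 h (0.071). B2M, the light chain of class I, read 1.83 on the average, with means of 13.28 in MDA-MB-231, 12.92 in BT549, 13.41 in HCC38 and 8.01 in MDA-MB-157.

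Interferon-stimulated genes did not follow IFI27 as a group. Of 44 measured, 4 were higher than in each other line, 0 were lower, 15 were called higher and 23 lower on the average, and the median was -0.33. Among the 4 is IFI27 itself, a lead gene picked on 0 h values of these arrays. The others in the program were LGALS3BP, IFIT3 and IFI16, at 3.81, 1.93 and 1.42. All 3 calls ended with median scaling (adjusted p 0.098 for LGALS3BP, 0.62 for IFIT3 and 0.30 for IFI16). That of IFI16 also ended without rep 2 of MDA-MB-231 at 0 h (adjusted p = 0.12), that of IFIT3 also with the authors' values (0.094), and in all those of LGALS3BP and IFIT3 ended under 10 and 9 settings. MX1, an antiviral GTPase, had means of 8.33 in MDA-MB-231, 9.91 in BT549, 11.35 in HCC38 and 9.77 in MDA-MB-157. ISG15, a ubiquitin-like modifier, had 11.38 in MDA-MB-231, 10.52 in BT549, 11.49 in HCC38 and 10.35 in MDA-MB-157. The promoter of IFI27 is shown because its level set it apart from these genes. Capitals mark 2 matches of GAAANNGAAA, a core of the interferon-stimulated response element, 1 on each strand and not overlapping. The letters were searched on both strands and found in 3.57% of the 35116 promoters, at chr14:94110486-94110785 (+). IFIT3 held 2 matches, LGALS3BP 1 and IFI16 0.
IFI27: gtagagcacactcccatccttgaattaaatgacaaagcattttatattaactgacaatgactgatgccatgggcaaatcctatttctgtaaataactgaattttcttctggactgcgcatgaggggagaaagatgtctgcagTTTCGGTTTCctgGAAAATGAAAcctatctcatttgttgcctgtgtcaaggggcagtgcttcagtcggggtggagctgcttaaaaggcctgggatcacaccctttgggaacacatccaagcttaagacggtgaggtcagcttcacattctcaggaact

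Receptor tyrosine kinases and their ligands had 7 higher and 2 lower of 40 measured, with a median of -0.07. MERTK and AXL, both of the TAM family, were higher and DDR2 lower, as given above. ROR1, an orphan receptor of WNT ligands, differed by 2.54, with 0.06 on its other probe. EFNA1, a ligand of Eph receptors, differed by -1.62, a call that ended with median scaling (adjusted p = 0.059). EGFR was outside the program, with means of 8.92 in MDA-MB-231, 7.96 in BT549, 7.59 in HCC38 and 8.71 in MDA-MB-157. Among 43 genes of the TGF-beta, BMP and WNT pathways 0 were higher and 6 lower, with a median of -0.13. They were SFRP1, ID2, DKK3, the ligand TGFB3 (at least 1.97-fold), the ligand BMP7 (at least 1.13-fold) and the inhibitory SMAD6 (-2.37). With the authors' values the calls of TGFB3 (adjusted p = 0.087), BMP7 (0.56) and SMAD6 (0.054) ended, and that of BMP7 with median scaling (0.11). The call of SMAD6 also ended with median scaling (0.061) and without rep 2 of MDA-MB-231 at 72 h (0.087) or rep 1 of BT549 at 72 h (0.060).

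Of 28 genes named in studies of metastatic sublines of MDA-MB-231, 5 were higher and 3 lower than in each other line, with a median of -0.66. SPARC, SOX4, a transcription factor of progenitor cells, and FSCN1, an actin bundler of filopodia, were lower, the last pair by -2.31 and -1.81. CXCR4, the receptor of the chemokine CXCL12, had 5.71, 7.33 and 7.60 in MDA-MB-231, against at most 5.92 elsewhere, so its lowest array overlapped the highest of HCC38. It was at least 3.01-fold higher, and the call ended with median scaling (adjusted p = 0.051), with the authors' values (0.059) and without rep 1 of MDA-MB-231 at 0 h (0.29) or rep 2 of MDA-MB-157 at 0 h (0.16). MMP1, the interstitial collagenase, had means of 7.22 in MDA-MB-231, 5.74 in BT549, 4.65 in HCC38 and 4.87 in MDA-MB-157 and was outside the program. IL13RA2, a decoy receptor of interleukin 13, was undetected in MDA-MB-231 (4.43), with 9.08 in BT549, 5.09 in HCC38 and 8.23 in MDA-MB-157. Among 40 cytokine genes 3 were higher and 0 lower, and the neutrophil chemokine CXCL1 read -3.07 on the average.

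Of 33 matrix proteases and inhibitors, 3 were higher and 2 lower. ADAM8, a metalloprotease of leukocytes, had 8.47, 8.80 and 9.28 in MDA-MB-231, against at most 5.61 elsewhere, and was at least 9.78-fold higher (highest adjusted p = 1.9e-10). SERPINE2, an inhibitor of thrombin and plasminogen activators, and CTSV, a lysosomal protease, differed by -3.06 and -2.87. Of 28 integrins and laminins, 4 were higher and 1 lower, with a median of 0.57. Of these 5 calls, 3 were kept with the authors' values, and that of ITGB4 alone with median scaling and under every setting. ITGB4, a hemidesmosome integrin, had 8.53, 8.67 and 9.11 in MDA-MB-231, against 6.46, 6.88 and 7.11 in HCC38 and 5.16, 5.95 and 6.44 in MDA-MB-157, and no BT549 array detected it. ITGA3, a laminin receptor, differed by 1.98 ± 0.11, a call that ended with median scaling (adjusted p = 0.099).

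Serine and one-carbon genes had 2 higher and 3 lower of 18 measured, with a median of -0.26. PHGDH and CBS stood far below the other lines. The next enzyme of serine synthesis, PSAT1, had means of 10.05 in MDA-MB-231, 11.02 in BT549, 9.70 in HCC38 and 10.25 in MDA-MB-157, and SHMT2, the mitochondrial serine hydroxymethyltransferase, read 0.15 on the average (adjusted p = 0.23). MTHFD2, a mitochondrial folate enzyme, differed by -1.94, and its call ended without rep 1 of MDA-MB-231 at 0 h (adjusted p = 0.65), rep 1 of BT549 at 0 h (0.10) or rep 2 of BT549 at 0 h (0.11), with median scaling (0.084) and with no filter on dim probes (0.059). CTH, which follows CBS in cysteine synthesis, differed by 2.21, a call that ended under 12 settings (adjusted p up to 0.25). Of 32 glutathione and aldehyde enzymes, 3 were higher and 2 lower. The lower ones were GSTT1 and ALDH1A3, a retinaldehyde dehydrogenase, at -3.47, and both kept their call under every setting. The calls of all 3 higher genes ended with median scaling.

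**Figure D4:**
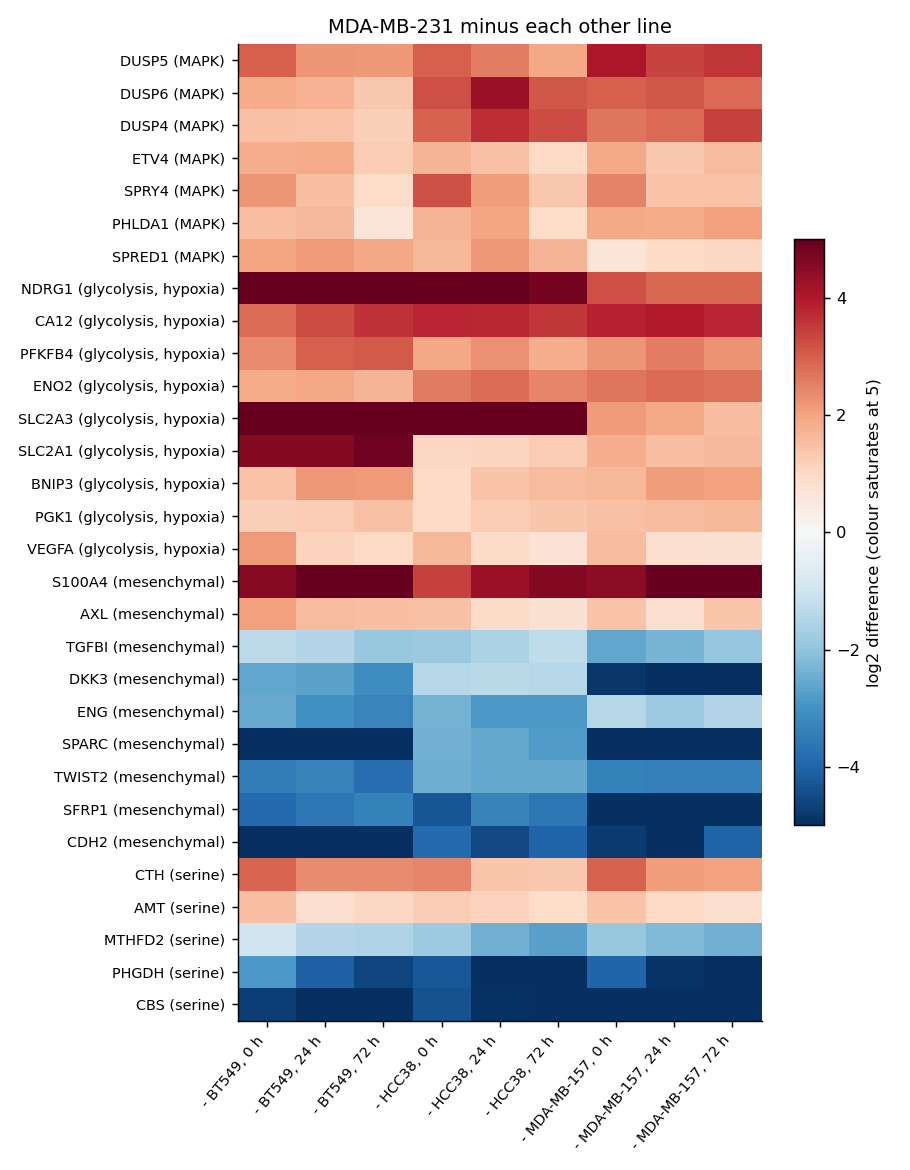
Log2 differences, MDA-MB-231 minus each other line at each time (9 columns), for the program members of the MAPK feedback, glycolysis and hypoxia, mesenchymal, and serine and one-carbon groups (rows). Red is higher and blue lower in MDA-MB-231, and colours saturate at 5 log2; each row keeps 1 sign because the rule requires it, while the size varies by line, as for SLC2A1 and SPARC.

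For cisplatin itself, 15 genes of platinum and drug transport had 3 higher and 1 lower, and each of these calls ended with median scaling. SLC31A2, a copper transporter, differed by 1.68 (adjusted p = 0.32 with median scaling). SLC31A1, the main copper importer, read 0.53 on the average. Of 22 genes of the p53 pathway, 2 were higher. CDKN1A, the cell cycle inhibitor p21, had 10.85, 11.16 and 11.54 in MDA-MB-231, against 7.74, 8.74 and 9.50 in BT549, 8.12, 8.91 and 9.55 in HCC38 and 8.43, 9.05 and 10.26 in MDA-MB-157. The ranges did not overlap, the difference was 2.22 ± 0.17 (highest adjusted p = 0.0062), and its other probe read 0.37. The call ended without rep 1 of MDA-MB-157 at 72 h (adjusted p = 0.11). Metallothionein genes (7 measured) and genes of the PI3K pathway (18 measured) had 0 members in the program.

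No change of the MDA-MB-231 difference with time on cisplatin was called. limma's test of whether the MDA-MB-231 difference at 24 or 72 h departed from that at 0 h called 0 genes at either time (0%). Unadjusted p under 0.05 held for 1093 genes at 24 h (7.38%) and 1521 at 72 h (10.3%), where chance alone gives 740, and the lowest adjusted p was 0.634 and 0.0553. Of the 882 program genes, 46 and 81 had such a p. The median size of the departure at 72 h was 0.21 log2 for program genes and 0.22 for all genes. Among genes named above, SPRY4 departed by -1.40 at 72 h, PHGDH by -1.38, CDKN1A by -1.05 and S100A4 by 1.03, all without a call. The count of 0 rested on 1 array. Without rep 1 of MDA-MB-231 at 0 h there were 351 calls at 24 h and 653 at 72 h, with only the replicate that stood apart as baseline, and without replicate 2 there were 0 and 0.

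Position along the genome was examined after the values were seen. Chromosome 8 held 62 lower genes of the program among 547 tested (11.3%, against 2.4% of all genes) and 16 higher genes (2.93%, against 3.56%). The lower genes lay in the middle. The 547 genes were divided into 10 runs of equal size by their order on GRCh38.p14. Runs 4 to 8, from PLEKHA2 to WASHC5, held 54 lower genes of 273 (19.8%), and the remaining runs held 8 of 274. Run 3 held 7 of these 8, among 55 tested genes, and the other was NSMCE2, the first gene of run 9. All 62 lay from MAK16 in run 3 to NSMCE2, so the limits of the runs are not edges of the stretch. The median difference was -0.61, -0.71, -0.70, -0.59 and -0.50 in runs 4 to 8 and -0.21 in run 3. It was 0.01 and 0.09 in the first pair of runs and -0.04 and -0.23 in the last pair. Against single lines the median of runs 4 to 8 at 0, 24 and 72 h was -0.79, -0.65 and -0.69 for BT549, -0.47, -0.37 and -0.41 for HCC38, and -0.63, -0.53 and -0.59 for MDA-MB-157. The count of 62 rested on the normalization, since median scaling left 17 and the authors' values 35, and without the replicate at 0 h that stood apart it was 60. All 62 lay below the other lines in all 9 comparisons on each slide, but these are the arrays that chose the genes, so this is no separate support.

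**Figure D5:**
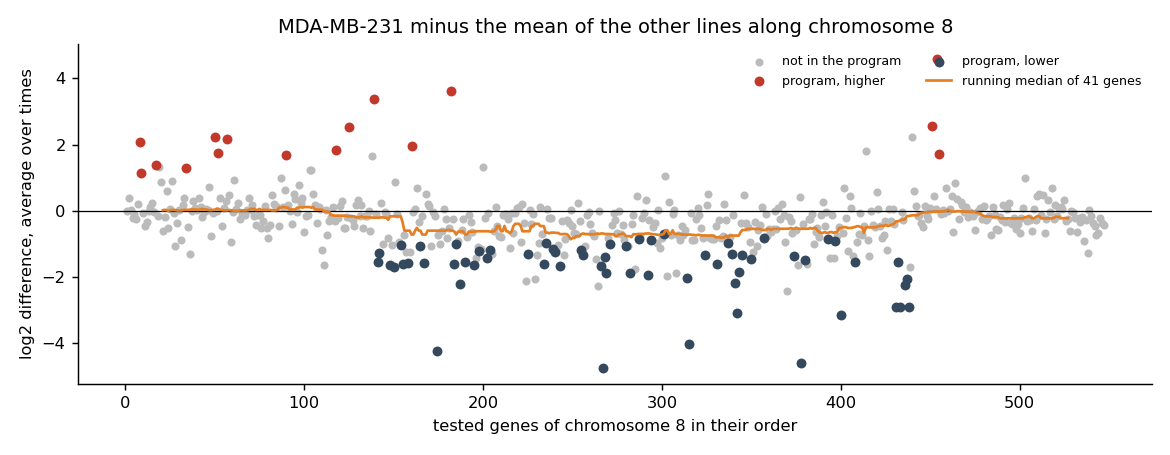
Average log2 difference, MDA-MB-231 minus the mean of the other lines, of the 547 tested genes of chromosome 8 in their order along the chromosome, with a running median over 41 genes. Coloured points are program genes; the 62 lower ones gather in the middle stretch, where the running median lies below 0.

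A shorter stretch ran the other way. CDKN1A lies on chromosome 6, and of 21 tested genes around it, from TEAD3 to CMTR1, 11 were in the program as higher, all 21 had an average difference above 0 and 19 were called higher. MAPK13, a p38 kinase, was undetected in 2 of the other groups and at least 1.96-fold higher. KCTD20 read 1.98, PPIL1 1.79 and STK38 1.49. The stretch of the HOXC cluster on chromosome 12, from HOXC13 to CBX5, was lower on the average. Of 11 tested genes there, 5 were in the program as lower, and all 11 were called lower on the average. The 11 include HOTAIR, SMUG1 and CBX5, and of the 8 HOXC genes 4 were in the program. HOXC8 was about as low in MDA-MB-157 (mean 4.76) as in MDA-MB-231 (4.85), against 9.59 in BT549 and 8.95 in HCC38. HOXC13, HOXC6 and CBX5 differed by -3.86, -3.49 and -1.38, while HOXC10 and HOXC9, detected on 0 of 6 MDA-MB-231 arrays, were at least 1.16-fold and 1.35-fold lower. On 9p21 only FOCAD and KLHL9 of 16 tested genes were in the program, detected on 0 and 1 of 6 MDA-MB-231 arrays and at least 1.99-fold and 9.99-fold lower. Their neighbours MTAP, CDKN2A and CDKN2B had means of 4.74, 4.83 and 4.52 in MDA-MB-231 and of 4.93, 5.54 and 4.82 in HCC38, against 10.03, 11.02 and 8.98 in BT549 and 8.38, 10.07 and 7.93 in MDA-MB-157, so their low level was shared with HCC38.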

How the data were processed

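The members and the gene lists were chosen with earlier results of these data known, so no list is independent evidence of its direction. The authors deposited non-normalized bead intensities per probe, with no control probes, and the summarising software is not given in the sources used here. Per the file headers, a detection p-value accompanies every intensity. A second table deposited by the authors holds log2 values whose identifiers did not correspond to its values (correlation with log2 intensity -0.0073 to 0.0073 per array). It was matched by value (47319 of 47322 probes within 0.02) and then matched log2 intensity less an array's 75th percentile and a probe's median, with column medians of -0.40 to 0.18. It served as an alternative only. Of the probes, 30112 had 1 symbol, 8 several and 17202 none, and symbols were updated through RefSeq of GRCh38.p14 (30073 matched).

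Background was corrected with normexp in limma 3.58.1 (R 4.3.3, offset 16, controls inferred from the detection p-values), followed by quantile normalization and log2. Probes detected (p under 0.05) on 2 or more arrays entered, and the brightest probe stood for a gene, which left 14807 genes. The limma model had 1 mean for each group over the 24 arrays (12 residual and 6.87 prior degrees of freedom), and p-values were Benjamini-Hochberg adjusted over all genes within each comparison. The procedure was tested on simulated data. Averages weight lines and times equally, and their error does not extend to other lines. A least fold sets the mean of the bright group against, per array, the higher of the lowest signal among detected probes and the probe's own signal. Other probes of a gene are given where they differ by more than 1.5 times.

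Genes were named by rule: the given markers, the 15 genes of the program with the largest smallest difference in each direction, separately for genes measured or undetected on the dim side, the 12 brightest detected in MDA-MB-231 only or missing in it only, up to 6 program members per list and direction, and members whose absence of a call is the point. Genes named from their position were chosen after their values were seen. Deviations of same-numbered replicates from their group means correlated at -0.092 to 0.21 over 18 pairs of lines at the same time, which are the comparisons made here, and at -0.049 to 0.50 over 12 pairs of times within a line, where the 3 pairs of BT549 stood highest (0.38 to 0.50). The numbers were therefore not taken to pair lines, and a block within each line was an alternative. Alternatives covered normalization, background, filters, probes, slide, replicate block, array weights and leaving out each array. Some genes and gene groups are not reported here. All 24 sample columns of the intensity table were used.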

Additional observations from a re-analysis of the deposited data

Results flagged for a closer look

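Of 8649 tested probes with no gene symbol, 15 were detected on all 6 MDA-MB-231 arrays and on 0 of the 18 arrays of BT549, HCC38 and MDA-MB-157. They lie outside the comparisons of named genes, and what they measure is not named here. By the rule of the program 97 probes without a symbol were higher and 39 lower in MDA-MB-231, and 10 were missing in MDA-MB-231 only.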

How the results depend on the processing

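Results were recomputed under 35 settings, and 95 of the 159 genes followed kept their call in all of them. Median scaling called 3500 genes against HCC38 and 2338 against MDA-MB-157 at 0 h, 2369, 2893 and 2605 against BT549, HCC38 and MDA-MB-157 at 24 h, and 2381, 2968 and 2962 at 72 h. It left 176 higher and 143 lower program genes (176 and 141 of the 527 and 355), 165 higher by at least 1 log2, 2153 higher on the average and 17 lower on chromosome 8. The authors' values called 3375 against MDA-MB-157 at 0 h and 3482 against BT549 at 72 h, and gave 310 and 183 program genes (304 and 170 shared), 105 and 74 by at least 1 log2, and 35 on chromosome 8. Without background correction 128 and 77 genes differed by at least 1 log2, and an offset of 50 left 108 lower. A change by 72 h was called for 1 gene without background correction, with an offset of 50, with the mean of the probes and with a random replicate block. At a detection p under 0.01, 52 genes were detected in MDA-MB-231 only. The cause of these moves was not tested.

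With the replicate number as a fixed replicate block the program held 546 higher and 372 lower genes, with a random replicate block within each line 526 and 358, and with the slide as a block 527 and 359. The fixed block changed 0 interaction calls. The numbers are not known to pair the lines.

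Leaving out 1 array at a time, the counts ran from 3864 to 5220, 4871 to 6013 and 4357 to 5735 against BT549, HCC38 and MDA-MB-157 at 0 h. They ran from 4053 to 5382, 4702 to 6262 and 4449 to 5979 at 24 h, and from 4067 to 5519, 4891 to 6454 and 4787 to 6397 at 72 h. The program ran from 436 to 517 higher and 295 to 352 lower genes, 241 to 273 and 155 to 174 by at least 1 log2, and 49 to 64 lower on chromosome 8. Averages ran from 3713 to 3977 higher and 3970 to 4414 lower, genes detected only or missing only in MDA-MB-231 from 29 to 33 and 52 to 60, and interaction calls from 0 to 351 at 24 h and 0 to 653 at 72 h, the high values without rep 1 of MDA-MB-231 at 0 h. Averages and medians over gene groups include signals below background, and 2 arrays per group limit the precision.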

Other observations

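Further gene groups of MDA-MB-231 showed few program genes. Of 9 transcription factors of endoderm and liver, 2 were higher and 0 lower, FOXA2 and FOXQ1, a forkhead factor. FOXA2 is a lead gene picked on 0 h values of these arrays. FOXQ1 was detected on 0 of 6 BT549 arrays and was at least 1.94-fold higher, a call that ended with median scaling (adjusted p = 0.55), with the authors' values (0.073), with array quality weights (0.081) and without rep 1 of MDA-MB-231 at 0 h (0.13), rep 1 of HCC38 at 0 h (0.15) or rep 1 of HCC38 at 24 h (0.063). Beside FOXA2 on chromosome 20, LINC00261, a long non-coding RNA, was detected on 4 of 6 MDA-MB-231 arrays and THBD, thrombomodulin, on 5 of 6, and neither on the 18 others. Of 22 genes of nucleic acid sensing, 2 were higher and 1 lower, among them AIM2, a sensor of cytosolic DNA, at 1.99, a call that ended with median scaling (adjusted p = 0.20). Of 22 cell cycle inhibitors, RB genes and neighbours on 9p21, 1 was higher, CDKN1A.

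Runs of neighbours beyond those of the report also stood together, in counts made after the values were seen. On chromosome 20, 5 of 7 tested genes of the CST cluster were in the program as higher, the cystatins CST1, CST2, CST3, CST4 and CST7, and on chromosome 19, 5 of 7 genes of the PSG cluster, which encode pregnancy-specific glycoproteins. Both families have near-identical copies, so these counts may hold the same RNA more than once. The zinc finger genes ZNF667 and ZNF471 and the antisense gene ZNF667-AS1, consecutive on chromosome 19, were lower. Of the 8 measured HOXB genes 0 were in the program, 7 were called lower on the average (29.8% of all genes were) and the median was -2.27. HOXB2, HOXB7 and HOXB8 had means of 4.48, 4.85 and 4.51 in MDA-MB-231 and of 4.49, 5.61 and 4.41 in MDA-MB-157. BT549 had 8.80, 8.38 and 8.58 and HCC38 8.92, 9.33 and 8.90, so the low level of these genes was shared with MDA-MB-157. Chromosomes 6 and 10 held 61 of 799 and 39 of 573 genes of the program as higher (7.63% and 6.81%).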
